A study of Mus musculus with 180 samples.

Results

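Hematopoietic stem cells (HSC) were compared between the fetal liver (FL HSC) and the adult bone marrow (BM HSC) of mice. The members were chosen by the population each single cell was labelled with, and 92 of the 180 cells of the series belonged to them: 56 FL HSC and 36 BM HSC. Each cell was a separate mRNA-seq library made by a Smart-Seq2-type protocol, in which RNA is copied from the whole transcript. The values are TPM (a transcript's share of all transcripts, scaled), a level corrected for gene length that sums to 1000000 in every cell over 14825 genes. FL HSC were sorted from E14.5 fetal livers, as lineage-negative (Lin-) CD45.2+ cells that were positive for CD150, CD11b, Sca1 and c-Kit. BM HSC came from bone marrow at 8 weeks, and their sort gate is not given in the sources used here. Mice of both populations were C57BL/6 and carried the Rosa LSL-Hoxb5-EGFP/+ allele, a Hoxb5 transgene behind a stop cassette, with no Cre, so that the transgene was not induced in either. The tissue field of the labels reads bone marrow for all cells, and fetal liver is given by the cell type field and the sorting protocol. The other 88 cells appear here only for levels side by side. Of them, 41 were wild-type multipotent progenitors (WT-MPP) from mice of 8 weeks with the same allele and no Cre. The other 47 were donor-derived CD11b+CD48+SK cells of the Hoxb5 model, sorted 8 weeks after transplantation. Their donor progenitors carried the allele with Mx1-cre and were given to irradiated recipients, where injected pIpC switched on Cre and so the Hoxb5 transgene.

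In the mouse, HSC move to the fetal liver in mid-gestation and expand there by division before they settle in the bone marrow. Adult bone marrow HSC are mostly quiescent and divide rarely. Fetal HSC are known to use a growth program that is silenced after birth, in which the RNA-binding protein Lin28b and the let-7 target Hmga2 take part.

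No label named the animal or the litter of a cell, so each population counts as 1 sample and no test between them was possible. A share of cells is the percent of cells with TPM of 1 or more, and is given with its exact 95% binomial interval (Clopper-Pearson), which covers counting error only. Where 0 cells reached it, the share said to be allowed is instead that of 3 cells. For 0 of 36 this is 8.33%, below the exact upper limit of 9.74%. A difference is the mean over cells of log2(TPM + 1) in FL HSC minus that in BM HSC, and it understates the change of low genes. The read depth of the cells is unknown, because TPM keeps none. A gene listed at 0 may have been missed: Tbp, a general transcription factor that every cell uses, was listed at 0 in 7 FL HSC and 10 BM HSC.

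Some cells stood apart from others of their own population. The number of genes at TPM of 1 or more per cell ran from 3974 to 6789 in FL HSC, with a median of 5206.5, and from 2479 to 5861 in BM HSC, with a median of 4441.5. The BM HSC numbered 1 to 20 (16 cells) had 0 to 1123 genes with a TPM above 0 but below 1, and those numbered 21 to 40 (20 cells) had 1389 to 2207, so the sets did not overlap. The later-numbered BM HSC set also had fewer genes per cell, with a median of 4205 against 5169.5. Between these sets of 1 population, 542 genes (5.17%) were at least 1 higher and 2437 (23.3%) at least 1 lower in the later numbers. Among FL HSC, the 8 cells numbered 49 to 56 had 398 to 481 such low-valued genes and the 48 cells numbered 1 to 48 had 522 to 1011. The labels do not say what the numbers mean, so list medians that changed sign between the sets of BM HSC are given against both.

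**Figure D1:**
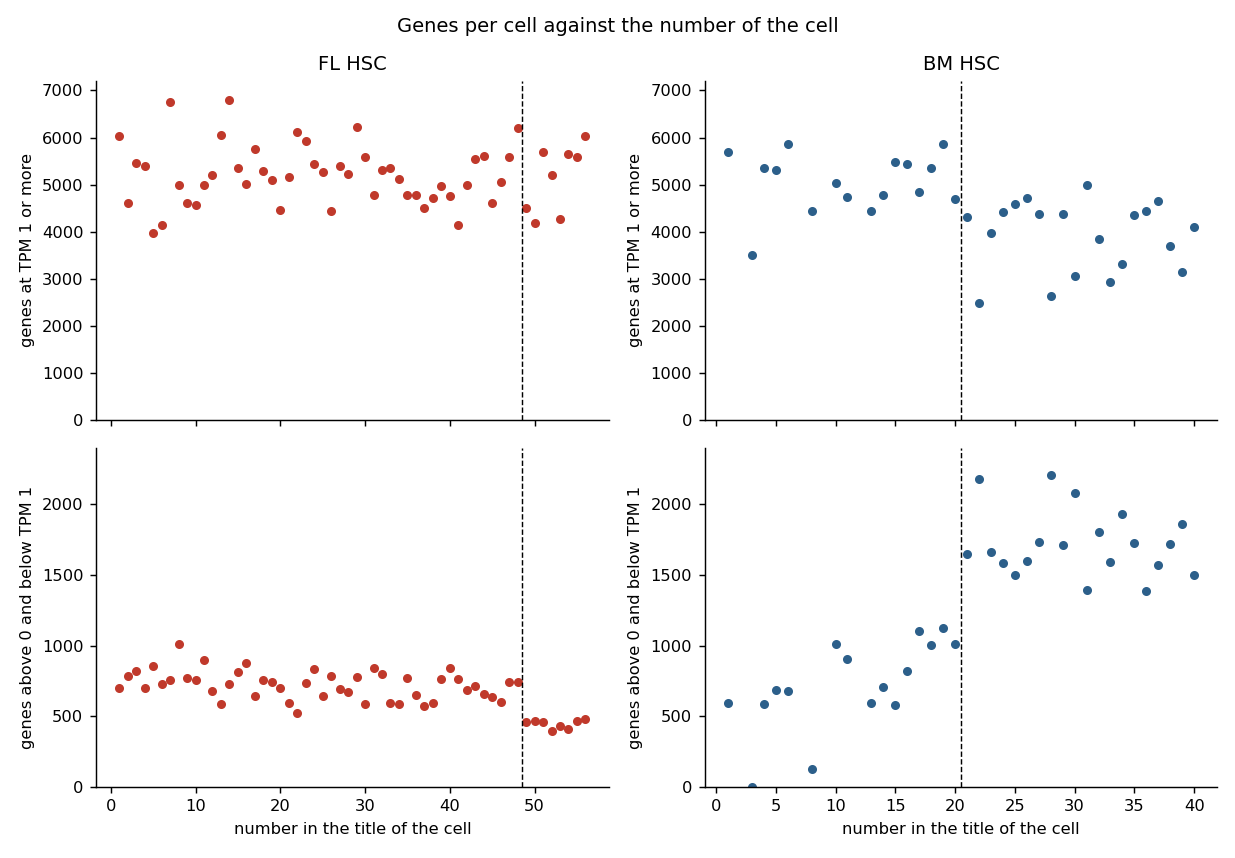
Genes at TPM of 1 or more (top) and genes with a TPM above 0 but below 1 (bottom) in each cell, by the number in the cell's label. Each point is a cell of FL HSC (left, n = 56) or BM HSC (right, n = 36). The step in the lower right panel between BM HSC 1 to 20 and 21 to 40 leaves no overlap.

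Some genes had values in 1 population alone. In FL HSC, 39 genes were at TPM of 1 or more in 10% of the cells or above while being listed at 0 in every cell of the other 3 populations, against 6 genes in BM HSC, 0 in WT-MPP and 23 in CD11b+CD48+SK cells. Among the 39 were Pisd-ps3 (100% of FL HSC) and Dhrsx (67.9%). Vamp7 (60.7% of FL HSC) and Tmlhe (16.1%), which lie on the unplaced scaffold GL456233.1, were also among the 39. Spry3, the only other gene of the table annotated to an unplaced scaffold alone, also had values above 0 only in FL HSC. Oaz1, which encodes ornithine decarboxylase antizyme, had 582, 960 and 1584 TPM in the lowest, median and highest FL HSC and no more than 284 TPM in any cell of the other populations. Whether the populations were processed with the same annotation was not tested, and genes with near-identical copies are uncertain throughout.

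After genes below the 10% share in both populations were left out, 10476 remained, of which 2775 (26.5%) had a difference of at least 1 upward and 591 (5.64%) of at least 1 downward in FL HSC. The median difference of all genes was 0.35, so higher calls were the more common for any list, and each list below is read against these values. With every gene taken relative to that median, 1827 genes were at least 1 higher and 1151 at least 1 lower. On the log2 of the mean TPM per population, which gives cells with high values more weight, the counts were 1222 and 2012, so the direction of the imbalance depended on the scale. The median of all genes was -0.14 on that scale, which also turned below 0 the small positive medians of the cytokine receptor, ribosome biogenesis, homing, cholesterol, heat shock, quiescence and erythroid lists below. Against both sets of BM HSC, 1801 genes (17.2%) were at least 1 higher and 300 (2.86%) at least 1 lower. The share of cells was at least 50 points higher in FL HSC for 76 genes (0.725%) and at least 50 points lower for 30 (0.286%). For 3 genes (0.0286%), Gm5506, Oaz1 and Pisd-ps3, the lowest FL HSC was above the highest BM HSC, and for 1 (0.00955%), Rgs1, the highest FL HSC was below the lowest BM HSC. These 4 genes were named after their values were seen.

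**Figure D2:**
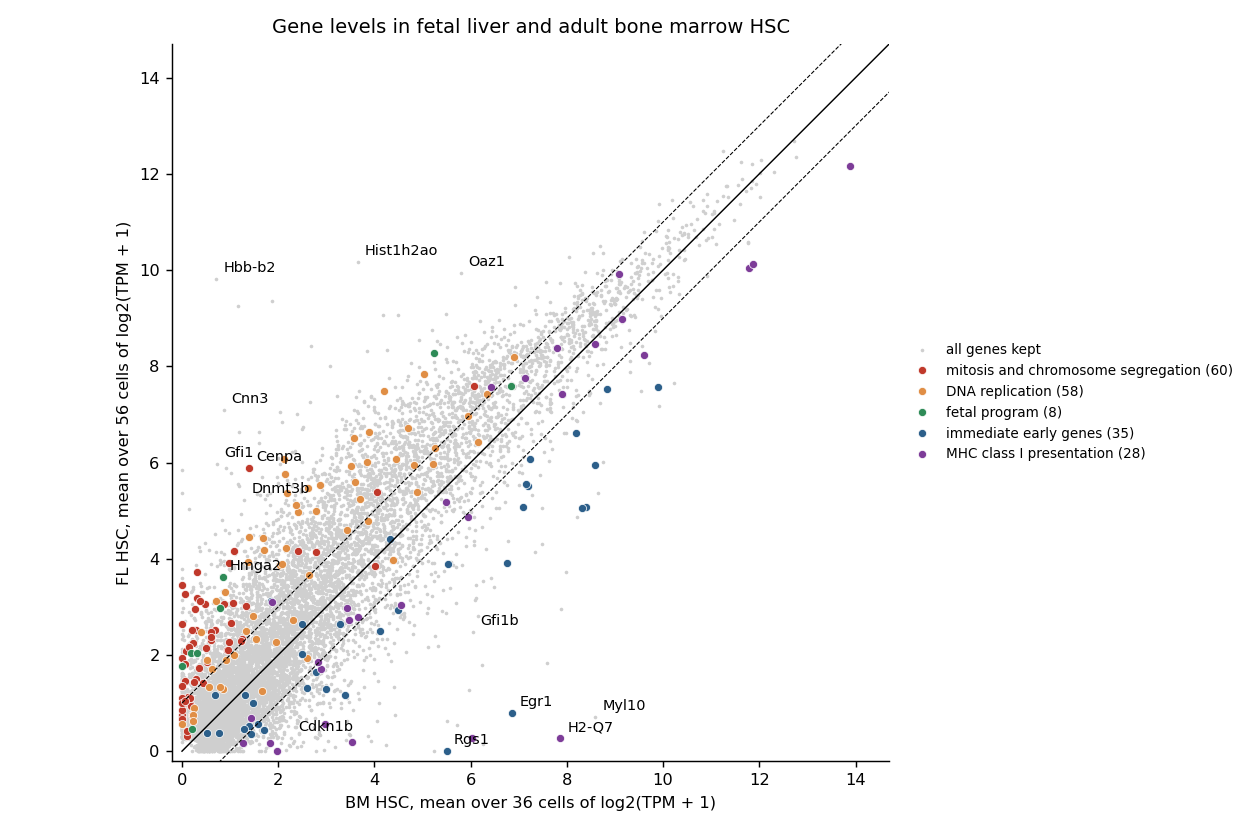
Mean log2(TPM + 1) of each of 10476 genes in BM HSC (horizontal) and FL HSC (vertical), with 5 gene lists coloured and dashed lines at a difference of 1 either way. Mitosis, DNA replication and fetal program genes lie mostly above the diagonal, and immediate early and MHC class I genes mostly below it.

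**Figure D3:**
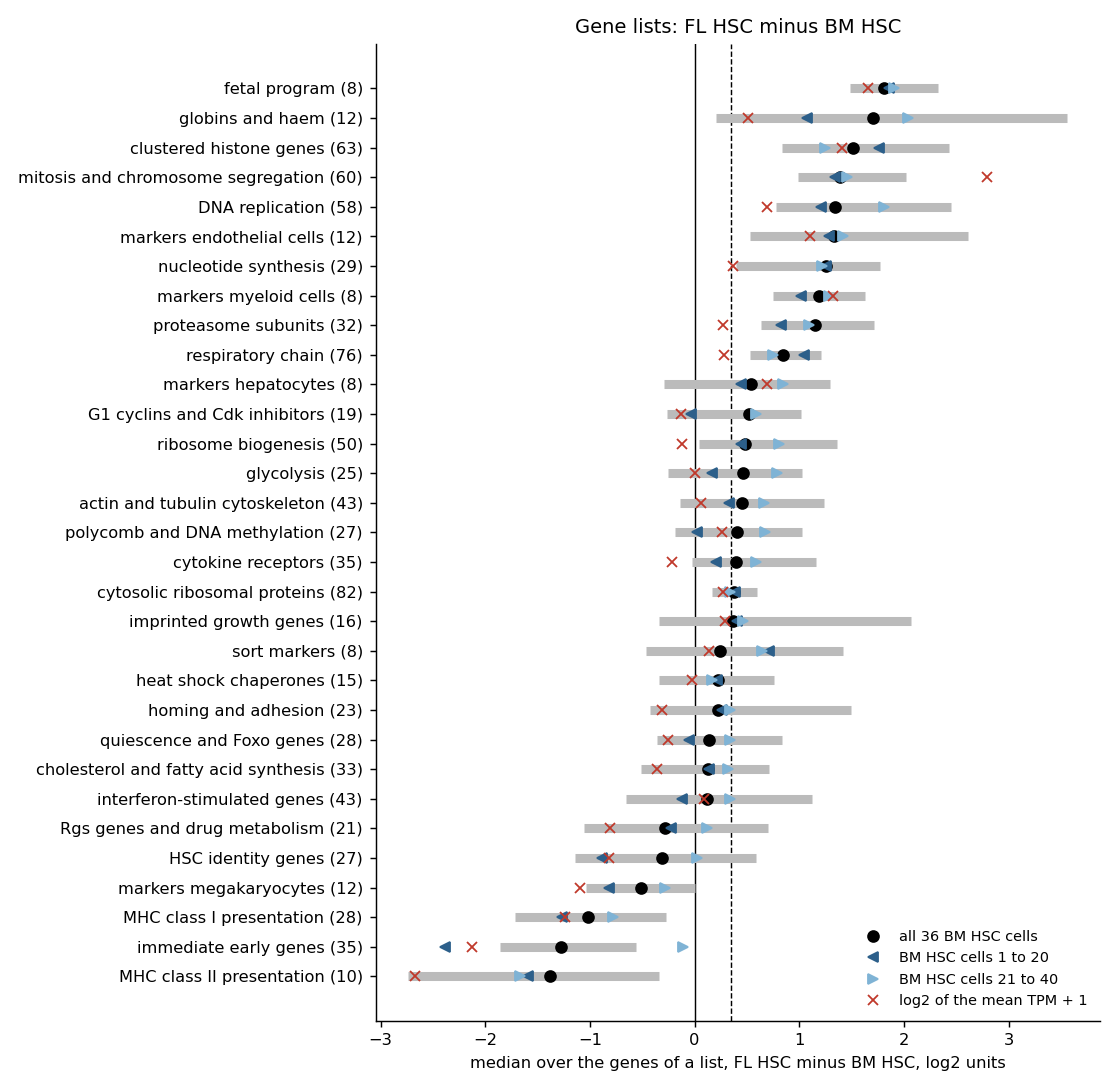
Median difference of each gene list with at least 8 genes kept, FL HSC minus BM HSC on the log2(TPM + 1) scale, with a bar for the quartiles and points for the median against BM HSC 1 to 20, against BM HSC 21 to 40 and from pooled mean TPM. The dashed line is the median of all genes (0.35), and immediate early, MHC class I and MHC class II genes lie to the left of 0.

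Genes of a fetal growth program were higher in FL HSC. Of the 8 kept members of this list (12 in the table), 6 were at least 1 higher and 0 lower, with a median of 1.81, and 3 of the 6 passed the filter only through FL HSC. Without the filter the median was 1.24. Hmga2, a chromatin protein that promotes self-renewal of fetal stem cells (chr10:120361275-120476469, GRCm38), had 0, 16.7 and 90.2 TPM in the lowest, median and highest FL HSC and 0, 0 and 120 TPM in BM HSC. It was at TPM of 1 or more in 82.1% of FL HSC (69.6 to 91.1%) and 25% of BM HSC (12.1 to 42.2%), although the highest single cell was a BM HSC. The related Hmga1 was found in all 56 FL HSC, at 84 to 892 TPM, and in 91.7% of BM HSC at up to 430 TPM, a difference of 3.05. Igf2bp2 and Igf2bp3, RNA-binding proteins of the same fetal program, were in 60.7% and 41.1% of FL HSC against 13.9% and 2.78% of BM HSC. Lin28b itself was in 12.5% of FL HSC (5.18 to 24.1%) and 5.56% of BM HSC (0.68 to 18.7%), and these intervals overlap.

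Imprinted growth genes were less uniform, with 7 of 16 kept genes at least 1 higher, 1 lower (Impact, -1.70) and a median of 0.37. Of the 7, 3 passed the filter only through FL HSC. H19, a maternally expressed noncoding RNA (chr7:142575529-142578143), was in 66.1% of FL HSC (52.2 to 78.2%), with a median of 28.8 and a highest value of 217 TPM. It was listed at 0 in every BM HSC, where 0 of 36 cells allows a share of up to 8.33%, and in every WT-MPP and CD11b+CD48+SK cell. Its neighbour Igf2, a paternally expressed growth factor, was in 57.1% of FL HSC and 1 BM HSC. Dlk1, which encodes a Notch-related surface protein and is also in the list of hepatocyte markers below, was in 51.8% of FL HSC (38 to 65.3%) and 5.56% of BM HSC (0.68 to 18.7%). Meg3, from the same imprinted locus as Dlk1, was in 32.1% and 22.2%, with overlapping intervals.

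**Figure D4:**
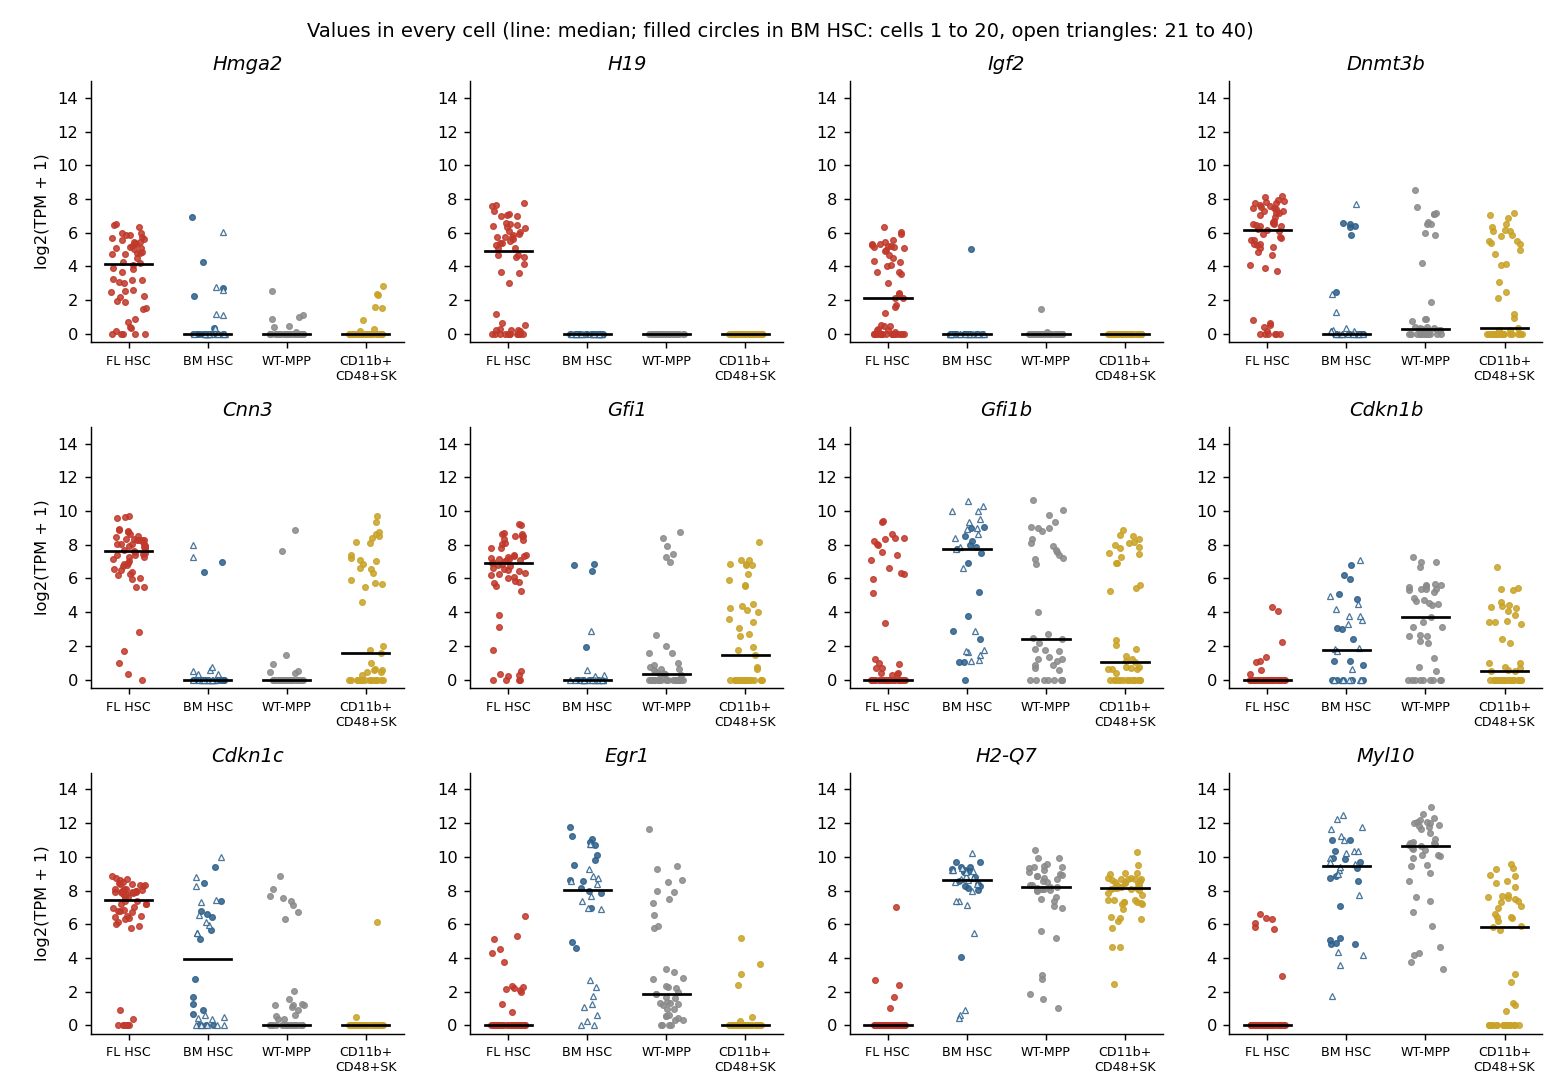
TPM of 12 genes in each cell of FL HSC (n = 56), BM HSC (n = 36), WT-MPP (n = 41) and CD11b+CD48+SK cells (n = 47), on a log2(TPM + 1) axis, with a line at the median and BM HSC 1 to 20 and 21 to 40 drawn as circles and triangles. H19 has values above 0 only in FL HSC, while Myl10 and H2-Q7 lie near 0 in most FL HSC and above it in BM HSC.

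Cell-cycle genes were higher in FL HSC as groups. Of 58 DNA replication genes, 39 were at least 1 higher and 0 lower, with a median of 1.34. Prim1, the small subunit of DNA primase, had a median of 133 TPM in FL HSC (lowest 0, highest 1055) and 0.564 TPM in BM HSC (lowest 0, highest 618), a difference of 3.95. Gmnn, the licensing inhibitor geminin, differed by 3.61, Tipin, of the replication fork protection complex, by 3.29, and Orc6, of the origin recognition complex, by 3.19. Mcm6, a subunit of the replicative helicase chosen after its values were seen, had medians of 268 TPM in FL HSC and 84.2 TPM in BM HSC. The cells of the populations overlapped for Prim1 and for Mcm6. Orc2 (-0.67), Pola1 (-0.42) and Chaf1b (-0.41) were the 3 replication genes with a difference below 0.

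The list of mitosis genes had a similar median. Of 60 genes, 44 were at least 1 higher and 0 lower, with a median of 1.39, and 23 of the 44 passed the filter only through FL HSC. Cenpa, the centromeric histone H3 variant, had a median of 76.7 TPM and a highest value of 1695 TPM in FL HSC, against 0 and 410 TPM in BM HSC. Ube2c, the ubiquitin-conjugating enzyme of the anaphase-promoting complex, was in 53.6% of FL HSC (39.7 to 67%), at up to 2916 TPM, and was listed at 0 in every BM HSC. Birc5, which encodes survivin, was in 37.5% of FL HSC (24.9 to 51.5%) at up to 1722 TPM and reached 1 TPM in none of the 36 BM HSC. Cdca8, which like survivin belongs to the chromosomal passenger complex, was in 48.2% and 8.33%.

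Counted per cell, the mitosis genes at TPM of 1 or more numbered 4, 11 and 59 of 60 in the lowest, median and highest FL HSC and 1, 7 and 24 in BM HSC. The medians lay near each other and the upper ends did not. In all, 17 of 56 FL HSC (30.4%, 18.8 to 44.1%) had more mitosis genes than any BM HSC, the lowest of them 27. Replication genes numbered 17, 37 and 55 of 58 in FL HSC and 11, 24 and 52 in BM HSC, with only 4 FL HSC above every BM HSC. Over the 56 FL HSC, counts of mitosis and replication genes had a Pearson r of 0.67 and a Spearman rho of 0.71. Over the 36 BM HSC the same counts had an r of 0.67 and a rho of 0.53. Mitosis gene counts also moved with the count of all genes in the cell, and that part was not tested. The r was 0.49 and the rho 0.64 in FL HSC, and 0.56 and 0.52 in BM HSC.

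Clustered histone genes, most of which are transcribed in S phase, were at least 1 higher for 44 of 63 kept genes and lower for 2 (Hist2h2aa1, -1.47, and Hist1h1c, -1.15), with a median of 1.52, and 9 of the 44 passed the filter only through FL HSC. Per cell, 14, 38 and 63 of 64 were at TPM of 1 or more in FL HSC and 7, 19.5 and 43 in BM HSC, and 20 FL HSC lay above every BM HSC. Hist1h2ao had 5.27, 1344 and 8910 TPM in FL HSC and 0, 15.5 and 85.5 TPM in BM HSC. Histone genes share near-identical coding sequence, so the level of any single copy and the number of copies counted per cell are uncertain. In FL HSC, counts of mitosis and histone genes had an r of 0.70 and a rho of 0.64 (n = 56), and in BM HSC an r of 0.06 and a rho of 0.10 (n = 36).

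**Figure D5:**
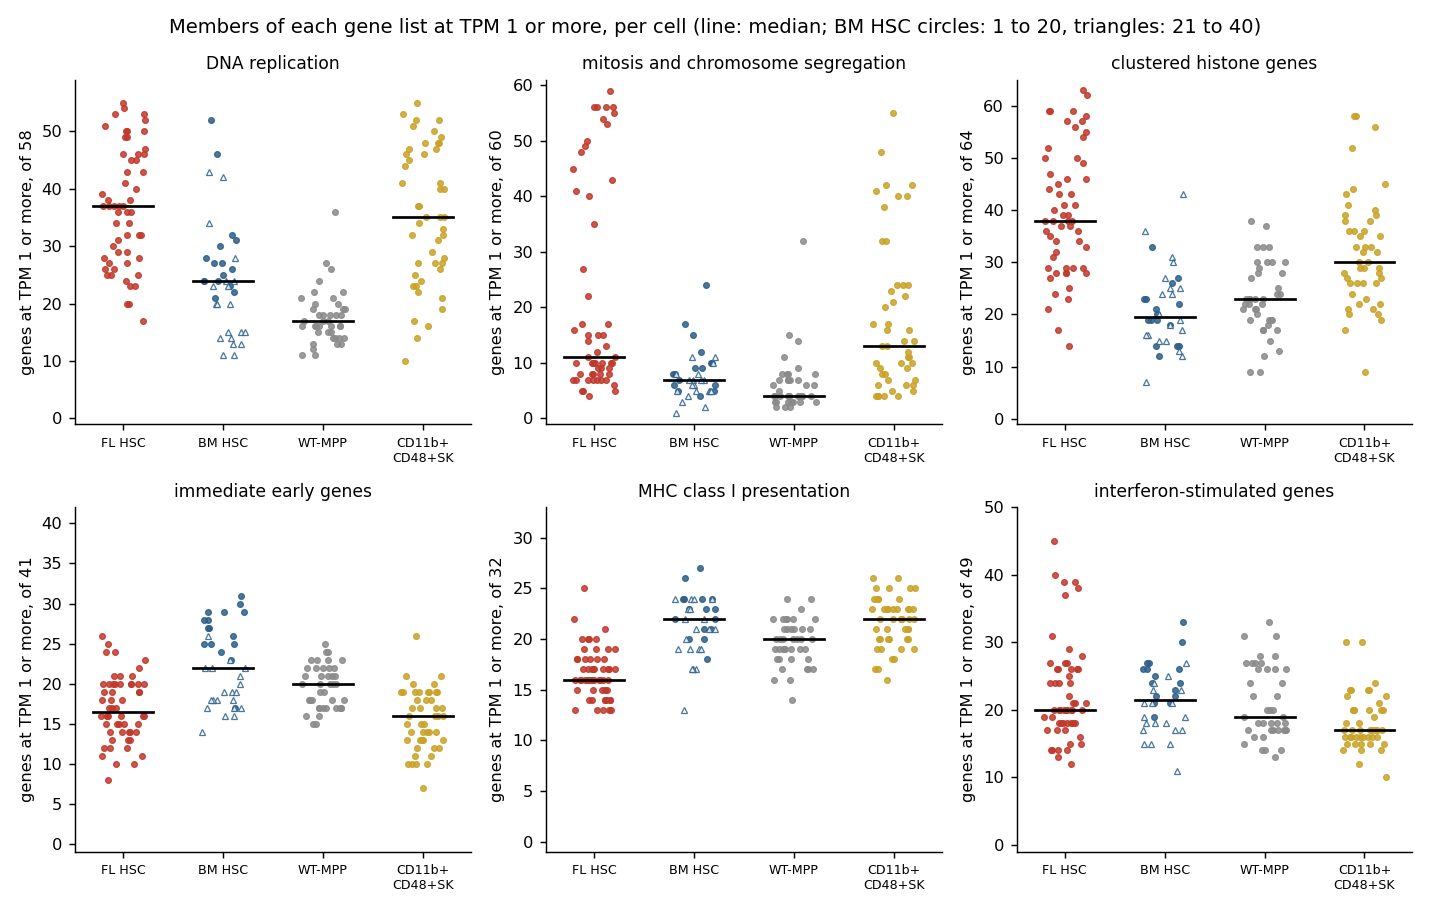
Number of genes at TPM of 1 or more in each cell of the 4 populations, for 6 gene lists. A tail of FL HSC lies above every BM HSC for mitosis genes (17 cells) and histone genes (20 cells), while the interferon-stimulated genes overlap except for 6 FL HSC.

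Promoter sequence was compared because replication, mitosis and histone genes moved as groups. Promoters were the 250 bases before each RefSeq start (GRCm38.p6, 27025 promoters), searched on both strands. The E2F element (TTTCGCGC, TTTGGCGC, TTTCCCGC or TTTGCCGC) was in 10 of 48 replication promoters (20.8%), in 1.91% of all promoters and in 3.86% of those of the kept genes, and also in 13.8% of histone and 9.43% of mitosis promoters. It was in 2 of 9 fetal program promoters (22.2%) and in 1 of 26 nucleotide synthesis promoters (3.85%). The cell cycle homology region (CHR, TTTGAA) was in 37.7% of mitosis promoters and 43.1% of histone promoters, against 16.3% of all and 10.9% of kept genes. The CCAAT box (CCAAT) was in 69.8% of mitosis and 81% of histone promoters, against 34.5% of all and 37.8% of kept genes. A match is a description of the letters and not evidence that a factor bound there. The stretches below show the elements in their setting for 1 replication gene, 2 mitosis genes and 1 histone gene, each as the bases just before the start on the strand of the gene, with 1 kind of motif marked in capitals on either strand (E2F in Mcm6, CHR in Ube2c and Cdc20, CCAAT in Hist1h2ao) and other motifs left in lower case. Mcm6 holds 3 E2F matches of which 2 overlap, and Cdc20, the activator of the anaphase-promoting complex, was like Mcm6 chosen after its values were seen.
Mcm6 (chr1:128359706-128359825, minus strand): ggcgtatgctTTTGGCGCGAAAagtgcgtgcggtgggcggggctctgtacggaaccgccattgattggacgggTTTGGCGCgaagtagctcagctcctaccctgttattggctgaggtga
Ube2c (chr2:164769829-164769928, plus strand): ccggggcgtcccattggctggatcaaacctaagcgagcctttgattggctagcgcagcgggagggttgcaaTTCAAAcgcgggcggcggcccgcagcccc
Cdc20 (chr4:118437344-118437443, minus strand): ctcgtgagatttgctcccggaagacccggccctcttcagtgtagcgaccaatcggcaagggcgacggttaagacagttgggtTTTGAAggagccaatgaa
Hist1h2ao (chr13:21810247-21810366, plus strand): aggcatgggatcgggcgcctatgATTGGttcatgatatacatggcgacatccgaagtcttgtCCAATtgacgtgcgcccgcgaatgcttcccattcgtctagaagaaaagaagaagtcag
Cdc20 itself had a median of 19.9 TPM and a highest value of 2312 TPM in FL HSC, and 0 and 150 TPM in BM HSC.

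Nucleotide synthesis, which supplies replication, had 17 of 29 genes at least 1 higher (3 kept only through FL HSC) and 0 lower, with a median of 1.26 that was 0.37 from pooled mean TPM. Umps, of pyrimidine synthesis, differed by 3.19, and the purine enzymes Impdh2 and Paics by 2.75 and 2.42. Impdh2 was in 98.2% of FL HSC and 69.4% of BM HSC. G1 cyclins and Cdk inhibitors, in contrast, had 5 of 19 genes higher (26.3%) and 2 lower (10.5%), beside 26.5% and 5.64% of all genes. The median of this list, 0.52, became -0.030 against BM HSC 1 to 20 (0.59 against 21 to 40). From pooled mean TPM it was -0.13, and in cells matched for gene number -0.19. Within it, 2 of the Cdk inhibitors of the Cip/Kip family went opposite ways. Cdkn1b, which encodes p27, had 0, 0 and 18.6 TPM in FL HSC and 0, 2.4 and 133 TPM in BM HSC, and was in 10.7% (4.03 to 21.9%) against 58.3% (40.8 to 74.5%) of cells. Cdkn1c, which encodes p57 and is imprinted, had medians of 174 TPM in FL HSC and 19.7 TPM in BM HSC and was in 85.7% (73.8 to 93.6%) and 58.3%. The highest Cdkn1c value was in a BM HSC (1035 TPM, against 467 TPM in FL HSC). Cdkn1a, which encodes p21, was in 14.3% of FL HSC (6.38 to 26.2%) and 13.9% of BM HSC (4.67 to 29.5%), a difference of -0.31. Genes of quiescence and the Foxo pathway showed 4 of 28 higher and 2 lower, with a median of 0.14 (-0.054 against BM HSC 1 to 20 and 0.34 against 21 to 40), among them Tsc22d3, a Foxo and glucocorticoid target, at -2.73. Against both sets of BM HSC, 0 of the 4 were at least 1 higher.

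HSC identity genes were divided in direction. Of 27, 6 were at least 1 higher and 8 lower, with a median of -0.31 that was -0.88 against BM HSC 1 to 20 and 0.019 against 21 to 40. Gfi1b, a zinc-finger repressor of this list, was set beside the related Gfi1, and they differed in opposite directions. Both are needed in HSC, but Gfi1 is not in the list and was named as 1 of the 10 largest differences upward. Gfi1 (chr5:107716657-107726036) had 0, 118 and 607 TPM in FL HSC and 0, 0 and 117 TPM in BM HSC, and was in 85.7% (73.8 to 93.6%) and 13.9% (4.67 to 29.5%) of cells. Gfi1b (chr2:28609450-28621982) had 0, 0 and 683 TPM in FL HSC and 0, 215 and 1566 TPM in BM HSC, and was in 35.7% (23.4 to 49.6%) and 97.2% (85.5 to 99.9%). Both contrasts were at least 3 on the log2 scale against each set of BM HSC. Fli1 (-1.78), an Ets factor, was lower. Hoxb5 and Esam were higher by 1.47 and 1.84. Mecom, Hlf and Fgd5, which mark adult HSC and were named after their values were seen, differed by -1.06, -0.41 and -0.04.

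Transcripts of the sort markers were set beside the gates. Kit (-1.02) was in 85.7% of FL HSC and 86.1% of BM HSC, and its difference was -2.06 against BM HSC 1 to 20 and -0.19 against 21 to 40. Itgam, which encodes the CD11b used in the fetal gate, was in 16.1% of FL HSC (7.62 to 28.3%) and in 1 of 36 BM HSC (2.78%). Slamf1, which encodes CD150, was in 55.4% and 63.9%. Cd34, low or absent on adult HSC, had medians of 314 TPM in FL HSC and 14.6 TPM in BM HSC, and Flt3, a progenitor receptor, was in 53.6% and 25%. Cd48 was in 17.9% of FL HSC and 2.78% of BM HSC. Of the 8 sort markers, 3 were at least 1 higher and 1 lower, with a median of 0.24, and Ly6a (-0.59) and Ptprc (-0.42) lay between.

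The de novo DNA methyltransferases Dnmt3b and Dnmt3a had the largest differences of the polycomb and DNA methylation genes. Dnmt3b had 0, 71.6 and 290 TPM in FL HSC and 0, 0 and 205 TPM in BM HSC, and was in 80.4% (67.6 to 89.8%) and 25% (12.1 to 42.2%) of cells. Dnmt3a was in 91.1% (80.4 to 97%) and 27.8% (14.2 to 45.2%), a difference of 3.56. The list as a whole had 7 of 27 at least 1 higher (25.9%) and 1 lower (3.7%), beside 26.5% and 5.64% of all genes. Its median was 0.41, close to that of all genes, and was 0.022 against BM HSC 1 to 20 and 0.68 against 21 to 40. Eed, of polycomb repressive complex 2, was higher by 2.09, while Ezh1, the methyltransferase linked to adult HSC, was lower (-1.42).

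Immediate early genes, which cells transcribe within minutes of a stimulus, had lower values in FL HSC. Of 35 kept genes, 23 were at least 1 lower and 1 higher (Dusp5, 1.26), with a median of -1.28. The summed level of the list had a median of 2174 TPM per cell in FL HSC and 11033 TPM in BM HSC, and 19 BM HSC lay above the highest FL HSC. Egr1, a zinc-finger factor of this class, had 0, 0 and 89.3 TPM in FL HSC and 0, 265 and 3477 TPM in BM HSC, and was in 23.2% (13 to 36.4%) and 88.9% (73.9 to 96.9%). Fos had medians of 75.9 and 886 TPM, and Ppp1r15a, a stress-induced phosphatase subunit, of 89.8 and 455 TPM. The contrast depended on the set of BM HSC: the list's median was -2.39 against BM HSC 1 to 20 and -0.11 against 21 to 40, and 9 of the genes were at least 1 lower against both. Egr1 was lower against each (-8.13 and -4.42), while Nr4a1 (-5.05 and 0.05) and Jun (-3.73 and -0.03), named after their values were seen, were lower against the first set alone. What set the BM HSC sets apart was not tested, and dissociation and sorting times are not given.

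The cyclic AMP response element (CRE, TGACGTCA) was in 3 of 33 promoters of the list (9.09%), against 1.62% of all promoters and 2.82% of those of kept genes. The CArG box, bound by serum response factor, was in 6.06%, against 1.4% of all and 1.19% of kept genes. Other lists held them at similar shares, as the CRE was in 9.68% of ribosomal protein, 7.81% of respiratory chain and 6.9% of histone promoters, and the CArG box in 6.9% of histone promoters. The Ppp1r15a promoter is shown for its CRE, in capitals:
Ppp1r15a (chr7:45526269-45526328, minus strand): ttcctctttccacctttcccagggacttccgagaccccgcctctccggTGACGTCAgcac

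Genes of MHC class I presentation, which displays peptides at the cell surface, were also lower: 14 of 28 kept genes were at least 1 lower and 2 higher, with a median of -1.02, and 6 of the 14 passed the filter only through BM HSC. The summed level had medians of 10546 TPM in FL HSC and 30142 TPM in BM HSC, and 46 of 56 FL HSC lay below the lowest BM HSC (16401 TPM). B2m, the light chain of every class I molecule, had 1911, 4763 and 14460 TPM in FL HSC and 6382, 14958 and 59717 TPM in BM HSC, a difference of -1.71. H2-K1, a classical heavy chain, had medians of 1134 and 4531 TPM. B2m and H2-K1 were named after their values were seen, and both were lower against each set of BM HSC. H2-Q7, a nonclassical class I gene (chr17:35439155-35443773), had 0, 0 and 128 TPM in FL HSC and 0.376, 399 and 1191 TPM in BM HSC, and H2-Q6 beside it was in 5.36% and 72.2% of cells. The H2-Q genes are near-identical copies, so the values of the single copies are uncertain.

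MHC class II genes followed the same direction from much lower levels, with 5 of 10 kept genes at least 1 lower, 0 higher and a median of -1.38, and 2 of the 5 passed the filter only through BM HSC. Per cell, a median of 1 of 11 genes was at TPM of 1 or more in FL HSC and 4 in BM HSC. H2-Ab1, the class II beta chain, was in 5.36% of FL HSC (1.12 to 14.9%) and 63.9% of BM HSC (46.2 to 79.2%). Cd74, the invariant chain, was in 14.3% and 63.9%, and H2-DMa, which loads peptide, in 28.6% and 94.4%. In WT-MPP and CD11b+CD48+SK cells H2-Ab1 was in 61% and 87.2%, so FL HSC had the lowest share of the 4 populations.

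Interferon-stimulated genes, in contrast to the class I genes that interferon also induces, split both ways. Of 43 kept genes, 13 were at least 1 higher (30.2%) and 7 lower (16.3%), beside 26.5% and 5.64% of all genes. The list's median was 0.12, with -0.12 against BM HSC 1 to 20 and 0.34 against 21 to 40. Against both sets, 7 were higher and 3 lower. Oas1a (2.83) and Irf7 (1.81) were higher, and Gbp6 (-2.09) and Isg20 (-1.86) lower. Ifi44 was lower by its mean log2 value (-1.17) and higher by pooled mean TPM (0.38). FL HSC had 12, 20 and 45 of 49 genes at TPM of 1 or more per cell and BM HSC 11, 21.5 and 33, and 6 FL HSC (37 to 45 genes) lay above every BM HSC. In the cell numbered 45 these genes summed to 56385 TPM, of which Ifitm3, an antiviral membrane protein, made up 18579 TPM against a median of 1615 TPM in the other FL HSC.

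Adult beta-globin transcripts had the largest differences of all genes. Hbb-b2 had 2.86, 1350 and 6651 TPM in FL HSC and 0, 0 and 378 TPM in BM HSC, and Hbb-b1 was in 98.2% and 38.9% of cells. The alpha-globin gene Hba-a2, named after its values were seen, was in only 16.1% of FL HSC (7.62 to 28.3%) and 8.33% of BM HSC (1.75 to 22.5%). The globin and haem list had 8 of 12 kept genes at least 1 higher and 1 lower (Fech, -1.24), with a median of 1.71 that was 1.08 against BM HSC 1 to 20. Hbb-b1, Hbb-b2 and Beta-s are near-identical and their split is uncertain. Erythroid markers did not follow the globins: 1 of 5 kept genes was higher and 1 lower, with a median of 0.40 (-0.15 against BM HSC 1 to 20 and 0.86 against 21 to 40). Their summed level ranged from 1175 to 10898 TPM in FL HSC and from 2698 to 10911 TPM in BM HSC. Klf1, the erythroid master factor, was at TPM of 1 or more in 2 FL HSC and 1 BM HSC. The part of erythroid RNA in the globin values was not tested.

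Markers of other cells of the liver and marrow were read in the same way. Endothelial markers had 8 of 12 kept genes at least 1 higher (2 kept only through FL HSC) and 0 lower, with a median of 1.33, and summed to 950 to 8799 TPM in FL HSC and 63.3 to 2471 TPM in BM HSC. Egfl7, a secreted factor of endothelium and HSC, had 112, 909 and 6526 TPM in FL HSC and 0.551, 202 and 783 TPM in BM HSC. Ramp2, an adrenomedullin receptor subunit, was in 60.7% and 8.33%, and Emcn, a sialomucin, in 71.4% and 38.9%. Of the 17 markers in the table, 5 (Kdr, Lyve1, Stab2, Sox17 and Cldn5) did not reach the 10% share in either population, and Cdh5, Pecam1, Tek, Eng, Plvap, Robo4 and Sox18 were among the 12 that did. The part of endothelial RNA in these values was not tested. Hepatocyte markers had 3 of 8 kept genes higher, 2 of them kept only through FL HSC, and 1 lower, with a median of 0.54. Alb, the main plasma protein of hepatocytes, was in 1 of 56 FL HSC (1.79%) at 16.9 TPM and listed at 0 in every BM HSC. Apoa2, of the same list, was in 10.7% of FL HSC and also listed at 0 in every BM HSC. Dlk1, given above with the imprinted genes, is also a member of the hepatocyte list. The summed level of hepatocyte markers was 175 to 8547 TPM in FL HSC and 233 to 4819 TPM in BM HSC. By that sum, 4 FL HSC lay above every BM HSC and 1 below every BM HSC. The part of hepatocyte RNA in these values was not tested.

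Myeloid markers had 5 of 8 kept genes at least 1 higher and 0 lower, with a median of 1.19, while 16 of the 24 in the table, among them Elane, Csf1r, S100a8 and S100a9, failed the filter. They summed to 385 to 4746 TPM in FL HSC and 509 to 4257 TPM in BM HSC. Megakaryocyte markers had 3 of 12 lower and 0 higher (median -0.51), with Itga2b at -1.44, and summed to 345 to 3053 TPM and 173 to 3670 TPM. Few mast cell, B cell and T or NK cell markers were kept: of 4, 2 and 2 genes, respectively, Gata2 was at least 1 lower (-1.39) and Cd79b and Lck (1.77) at least 1 higher. The median summed level was 123 TPM in FL HSC and 351 TPM in BM HSC for mast cell markers, 209 and 200 TPM for B cell markers, and 0 in both for T and NK cell markers. The B cell genes Rag1 and Cd79a and the T cell genes Cd3d and Cd4 were among those that failed the filter.

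Lists of energy supply and protein turnover were set beside all genes, of which 26.5% were at least 1 higher and 5.64% lower. Of 76 respiratory chain genes, 29 (38.2%) were at least 1 higher and 0 lower, with a median of 0.84, and 75 had a difference above 0. That median was 0.28 from pooled mean TPM. Proteasome subunits had 17 of 32 higher (53.1%) and 0 lower, with a median of 1.15 that was 0.28 from pooled mean TPM. Psmd13 and Psmc5, of the regulatory particle, differed by 2.98 and 2.69. Ribosome biogenesis had 21 of 50 higher (42%) and 0 lower (median 0.48). Cytosolic ribosomal proteins had 5 of 82 higher (6.1%, below the share of all genes) and 1 lower. Their median of 0.38 was near that of all genes (0.35). Glycolysis had 7 of 25 higher (28%) and 1 lower (4%), near the shares of all genes (median 0.47), with Slc2a1, a glucose transporter, at 2.23. Cholesterol and fatty acid synthesis were mixed at 6 of 33 higher and 5 lower (median 0.13), and heat shock chaperones had 3 of 15 higher and 0 lower (median 0.22). Against both sets of BM HSC, the higher genes numbered 16 for the respiratory chain, 11 for the proteasome, 10 for ribosome biogenesis and 3 for glycolysis.

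Cytoskeletal genes lay near both ends of the range. Of 43, 14 were at least 1 higher (32.6%) and 2 lower (4.65%), beside 26.5% and 5.64% of all genes, with a median of 0.46. Cnn3, an actin-binding calponin, had 0, 200.1 and 841 TPM in FL HSC and 0, 0 and 251 TPM in BM HSC, and was in 96.4% (87.7 to 99.6%) and 11.1% (3.11 to 26.1%). Tpm4, a tropomyosin, was in 89.3% and 25%, and Vim, which encodes the intermediate filament vimentin, had medians of 161 and 2.32 TPM. Myl10, a myosin regulatory light chain (chr5:136693146-136701094), was the lowest of all genes: it had 0, 0 and 97.7 TPM in FL HSC and 2.38, 716 and 5759 TPM in BM HSC, and was in 12.5% (5.18 to 24.1%) and 100% (90.3 to 100%). The median of Myl10 was 1618 TPM in WT-MPP and 55.8 TPM in CD11b+CD48+SK cells.

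Homing and adhesion genes had 8 of 23 at least 1 higher (34.8%) and 3 lower (13%), with a median of 0.22. Against both sets of BM HSC, 4 were higher and 1 lower. Of all genes, 26.5% were higher and 5.64% lower, and 17.2% and 2.86% against both sets. Jam3, a junctional adhesion molecule of HSC, differed by 4.33. Itgb2, the beta chain that pairs with CD11b, was in 57.1% of FL HSC (43.2 to 70.3%) and 8.33% of BM HSC (1.75 to 22.5%). Among cytokine receptors, 11 of 35 were higher (31.4%) and 4 lower (11.4%), and 7 and 3 against both sets. Their median of 0.40 was near that of all genes (0.35). Ifnar2 and Il2rg were higher by 2.67 and 2.49, and Ptger4, a prostaglandin E2 receptor (-3.14), and Notch2 (-2.15) were lower. Notch2 was in 35.7% of FL HSC and at least 75% of each other population.

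Genes of G-protein signalling and drug metabolism had 6 of 21 lower and 3 higher (median -0.29), and 4 of the 6 passed the filter only through BM HSC. The median was -0.22 against BM HSC 1 to 20 and 0.12 against 21 to 40. Sult1a1, a sulfotransferase, was in 5.36% of FL HSC (1.12 to 14.9%) and 86.1% of BM HSC (70.5 to 95.3%), with a median of 213 TPM in BM HSC. Aldh1a1, the aldehyde dehydrogenase known for its activity in HSC, was in 1.79% (0.0452 to 9.55%) and 69.4% (51.9 to 83.7%). Abcg2, the efflux pump of the side population, had medians of 23.1 and 159 TPM, whereas the glutathione transferase Mgst1 was in 92.9% and 50% of cells. Rgs1, a regulator of G-protein signalling, was listed at 0 in every FL HSC, where 0 of 56 cells allows a share of up to 5.36%, and had 0.902, 17.1 and 5153 TPM in BM HSC. Sult1a1 and Aldh1a1 were also low in WT-MPP (26.8% and 4.88%) and in CD11b+CD48+SK cells (0% and 0%), whereas Rgs1 was in 100% and 51.1%.

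Other genes at the extremes had no list. Lgals1, which encodes galectin-1, was found in all 56 FL HSC and 50% of BM HSC, and Grap, an adaptor related to Grb2, was in 76.8% of FL HSC and listed at 0 in every BM HSC. Wfdc17 was in 83.9% and 33.3%. Glipr1 had medians of 0.553 TPM in FL HSC and 326 TPM in BM HSC, where it was found in every cell. Sdsl was listed at 0 in every FL HSC and was in 86.1% of BM HSC. The Pisd pseudogenes went opposite ways: Pisd-ps3 was among the 10 largest differences upward, and Pisd-ps1 and Pisd-ps2 among the 10 largest downward. Gm6402, Gm6548, Rps15a-ps4 and Mir684-2 were among the 10 highest by share of cells, and Mir1892 and Mir686 among the 10 lowest. The part of annotation in these calls was not tested.

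Sex-linked genes were checked because the labels give no sex. A Y-linked gene was found in 15 of 56 FL HSC (26.8%, 15.8 to 40.3%) and in 0 of 36 BM HSC, which allows a share of up to 8.33%. Xist, the X inactivation RNA of female cells, was found in 17 FL HSC and 23 BM HSC, and no cell had both. Neither was found in 24 FL HSC and 13 BM HSC, whose sex is therefore unknown. Of the sex-linked genes, 1 of 4 kept was at least 1 higher and 2 lower (median -0.51), and sex and developmental stage cannot be told apart for them.

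The differences were set beside those of CD11b+CD48+SK cells minus WT-MPP, a contrast that shares no cell with FL HSC and BM HSC. In that contrast 2027 genes (19.3%) were at least 1 higher and 537 (5.13%) at least 1 lower. Of the 2775 genes higher in FL HSC, 1156 were also higher there, which is 41.7% of the first list and 57% of the second, and 72 were lower. Of the 591 lower genes, 143 were lower there (24.2% of the first list and 26.6% of the second) and 39 were higher. Both contrasts also set cells with more genes against cells with fewer. The median number at TPM of 1 or more was 4514 in CD11b+CD48+SK cells and 3844 in WT-MPP, beside 5206.5 in FL HSC and 4441.5 in BM HSC. Genes above 0 but below TPM of 1 had medians of 699, 1392, 699 and 1445.5 in the same order. The part of gene detection in the shared calls was not tested. DNA replication genes had medians of 1.34 and 2.09 in the contrasts and mitosis genes 1.39 and 0.88. MHC class I and class II genes had negative medians for FL HSC (-1.02 and -1.38) and positive ones for CD11b+CD48+SK cells (0.38 and 0.78). The fetal genes Hmga2, Igf2bp2 and Dlk1 were in 10.6%, 0% and 0% of CD11b+CD48+SK cells.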

How the data were processed

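The samples were 180 single cells, of which 92 (56 FL HSC, 36 BM HSC) were compared, and each cell was mapped to its population by the labels. The deposited values are TPM, which the authors made per cell with HISAT2 2.1.0, SAMtools 0.1.19 and StringTie 1.3.4 on mm10 (GRCm38), per the submitters' processing notes and the study's methods. Annotation versions are not given in the sources used here. TPM is corrected for length and sums to 1000000 in every cell, so it holds no depth, and no molecular identifiers were counted. 1 column of the table belongs to no sample and was not used.

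Of 14825 genes, 10476 were kept that reached TPM of 1 in 10% or more of FL HSC or of BM HSC, a pseudocount of 1 was added, and the mean of log2(TPM + 1) over cells was compared. A gene was called at a difference of 1, or 50 points in the share of cells. Each population was 1 sample, since no animal is named, so no test was run. Doublets were not called and no cell was removed. The named genes were the 10 most different each way by level and by share, up to 4 each way in each of 36 gene lists, the sort markers, the defining fetal genes, the Cdk inhibitors, defining markers of other cells, and Hoxb5. Members, lists and rules were chosen with earlier results of these data known. No difference is printed against a population listed wholly at 0. Gene positions are those of GENCODE M21 and promoters those of RefSeq (GRCm38.p6). Of 14825 symbols, 14758 matched a RefSeq gene, older symbols included, and 8410 promoters of kept genes were found. The scripts were tested on simulated data and used Python 3.11.15, numpy 2.4.6, pandas 2.3.3, scipy 1.17.1 and matplotlib 3.10.9. Alternatives changed the scaling, pseudocount, filter and cells used, one at a time.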

Additional observations from a re-analysis of the deposited data

How the results depend on the processing

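Each population is 1 sample, so these are differences with no replicate check, and cells cannot stand for animals. No paired analysis was possible because no test was run and the numbers in the labels only name cells. Of the alternatives, the subsets by cell number, the FL HSC with Xist and the removal of pseudogenes were chosen after seeing the data. Depth is unknown, so a listed 0 is no evidence of absence.

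Genes at least 1 higher numbered 1222 from pooled mean TPM and 1043 with a pseudocount of 10. Genes at least 1 lower numbered 1317 against BM HSC 1 to 20, 1112 in cells with 4000 to 6000 genes, 349 with the 50% filter, 2012 from pooled mean TPM, 1291 with a pseudocount of 0.1 and 197 with 10. Share calls were 187 higher against BM HSC 21 to 40 and 183 higher with FL HSC that had Xist, and 70 lower against BM HSC 1 to 20, 14 lower at TPM of 10 and 66 lower at any TPM above 0.

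List medians moved as follows. From pooled mean TPM they were 0.70 for DNA replication, 2.79 for mitosis, 0.37 for nucleotide synthesis, 0.28 for proteasome, 0.51 for globins, -2.12 for immediate early and -2.67 for MHC class II genes. With a pseudocount of 0.1 they were 2.67 for histones, 3.32 for the fetal program, -1.89 for immediate early genes, 1.97 for endothelial markers, 1.81 for myeloid markers, 2.09 for mitosis, 1.86 for nucleotide synthesis and -2.30 for MHC class II. With a pseudocount of 10 they were 0.80 for DNA replication, -0.49 for MHC class I, -0.77 for MHC class II, 0.52 for histones, 0.69 for the fetal program, 0.94 for globins, 0.62 for endothelial markers, 0.61 for myeloid markers, 0.77 for mitosis and 0.66 for nucleotide synthesis. With the 50% filter they were 2.06 for DNA replication, -2.80 for MHC class II and 2.21 for endothelial markers. Without a filter they were -0.72 for MHC class II, 1.24 for the fetal program, 0.25 for globins, 0.55 for endothelial and 0.24 for myeloid markers. With the filter applied to the subset, BM HSC 1 to 20 gave 1.08 for globins, -2.17 for immediate early genes and 0.29 for myeloid markers, and BM HSC 21 to 40 gave -2.06 for MHC class II and -0.15 for immediate early genes. Cells matched for gene number gave -1.92 for MHC class II and 0.62 for myeloid markers, and FL HSC with Xist gave 1.95 for mitosis.

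Among lists with a median of at least 0.5 from 0, signs reversed for G1 cyclins and Cdk inhibitors (-0.13 pooled, -0.19 in matched cells, -0.030 against BM HSC 1 to 20) and for sex-linked genes (0.14 without a filter, 0.56 pooled). Among named genes they reversed from pooled mean TPM for Procr (-0.037), Ifi44 (0.38), Cd79b (-0.13) and Rgs19 (-0.14), in matched cells for Hsf1 (-0.22), and with FL HSC that had Xist for Xist (0.87). Lists with smaller medians changed sign more often, from pooled mean TPM or between the sets of BM HSC, as given beside them. The causes were not tested.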
